A study of Mus musculus with 28 samples.

Results

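Expression of 10 germline genes was measured in naive mouse embryonic stem (ES) cells: Dazl, Ddx4, Sycp1, Sycp3, Mael, Asz1, Tex101, Stk31, Brdt and Tdrd1. They were chosen by name as genes known for silencing by promoter DNA methylation outside the germ line, with earlier results of these data known. Each was found under its Ensembl identifier among 37991 counted genes. All 10 were among the 20321 genes with enough reads to be tested. The cells were J1 ES cells of strain 129S4/SvJae in 2i and LIF, which hold the naive state, or lines in which Dnmt1, Dnmt3a and Dnmt3b (DNMT TKO) or Tet1, Tet2 and Tet3 (TET TKO) were knocked out. Every culture was transduced with a lentivirus carrying an empty vector (shEmpty) or a hairpin against Kap1 (shKap1), selected with puromycin and collected at day 5. This gave 6 groups of RNA-seq libraries, with n = 3 for both WT and both DNMT TKO groups and n = 2 for both TET TKO groups. Each genotype is a line of its own with its own history, so genotype and line cannot be told apart. Per the methods, replicates came from independent experiments.

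Germ cells carry a programme for meiosis and for defence of the genome against transposons, and somatic cells keep many of its genes shut by methylating CpG-rich promoters. DNMT enzymes place and copy that methylation, and TET enzymes oxidise it to 5-hydroxymethylcytosine (5hmC), an early step towards its removal. KAP1, the product of Trim28, is a corepressor that zinc finger proteins bring to DNA, where it gathers enzymes for H3K9me3 and for DNA methylation. Among the 10 genes, Dazl and Ddx4 encode RNA-binding proteins of germ cells, Stk31 a Tudor domain kinase-like protein of germ cells, and Brdt a testis bromodomain protein that reads acetylated histones. Tex101 encodes a surface glycoprotein of testicular germ cells. Sycp1 and Sycp3 build the synaptonemal complex, which holds paired chromosomes in meiosis. Mael, Asz1 and Tdrd1 act in the piRNA pathway, which silences transposons in the male germ line.

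All 10 genes had RefSeq promoters (250 bases before to 50 after a start, 13 in all, since Stk31 has 2 and Tdrd1 3), and each matched the mm9 genome at a single place. Below are the 150 bases before the first RefSeq start of 5 genes, read 5′ to 3′ along the gene. Dazl and Brdt are shown because KAP1 regions overlap their starts, Ddx4 for its CpG count, the highest of the 10, and Stk31 and Tex101 because with Dazl they were called higher in DNMT TKO with shEmpty. Capitals mark CACGTG (an E-box core) or GCGGGA (E2F type), searched on both strands, so that an E2F match on the other strand would read TCCCGC. Dazl and Tex101 had neither motif and are in lower case throughout.
Dazl: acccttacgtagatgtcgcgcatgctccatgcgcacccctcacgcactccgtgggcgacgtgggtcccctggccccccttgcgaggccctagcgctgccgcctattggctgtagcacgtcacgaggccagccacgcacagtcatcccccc
Ddx4: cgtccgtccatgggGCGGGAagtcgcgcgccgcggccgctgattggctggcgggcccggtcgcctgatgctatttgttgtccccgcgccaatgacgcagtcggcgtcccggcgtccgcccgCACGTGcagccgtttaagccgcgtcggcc
Stk31: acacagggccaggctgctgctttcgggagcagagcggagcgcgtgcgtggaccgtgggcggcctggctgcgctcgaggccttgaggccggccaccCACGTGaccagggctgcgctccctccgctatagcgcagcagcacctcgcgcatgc
Brdt: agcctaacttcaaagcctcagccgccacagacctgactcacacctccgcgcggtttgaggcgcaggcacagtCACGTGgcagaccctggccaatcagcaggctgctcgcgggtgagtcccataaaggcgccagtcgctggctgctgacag
Tex101: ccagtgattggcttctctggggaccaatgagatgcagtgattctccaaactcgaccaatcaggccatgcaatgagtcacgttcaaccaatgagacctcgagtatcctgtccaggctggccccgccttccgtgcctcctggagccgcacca
The stretches lie at chr17:50432946-50433095 (minus strand), chr13:113442519-113442668 (minus strand), chr6:49345388-49345537 (plus strand), chr5:107760063-107760212 (plus strand) and chr7:25457070-25457219 (minus strand). In these 150 bases there were 14 CpG dinucleotides for Dazl, 26 for Ddx4, 16 for Stk31, 10 for Brdt and 6 for Tex101.

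In the mm9 annotation of the count files, the genes on the plus strand were Sycp3 (ENSMUSG00000020059) at chr10:87922314-87935981, Stk31 (ENSMUSG00000023403) at chr6:49345603-49419500, Brdt (ENSMUSG00000029279) at chr5:107760178-107816077 and Tdrd1 (ENSMUSG00000025081) at chr19:56900699-56944502. Those on the minus strand were Dazl (ENSMUSG00000010592) at chr17:50418719-50432924, Ddx4 (ENSMUSG00000021758) at chr13:113388541-113442518, Sycp1 (ENSMUSG00000027855) at chr3:102622422-102740023, Mael (ENSMUSG00000040629) at chr1:168131516-168168875, Asz1 (ENSMUSG00000010796) at chr6:18000964-18059061 and Tex101 (ENSMUSG00000062773) at chr7:25453031-25457069. The reads counted fell on their exons.

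Over the whole 300 bases, the first promoters of the 10 genes held from 15 (Sycp3) to 38 (Ddx4) CpG dinucleotides, all above the median of 7 over 32851 promoters of the same length. The quartiles of all promoters were 3 and 20. GC content ran from 54.3% at Asz1 to 72.0% at Ddx4, against a median of 52.7%. An E-box core stood in the first promoter of 7 of the 10 genes (Ddx4, Sycp1, Sycp3, Mael, Stk31, Brdt and Tdrd1) and in 7.15% of all promoters. The E2F type motif stood in 4 (Ddx4, Sycp1, Sycp3 and Mael), each of which also had the E-box, against 20.0% of all promoters with the E2F type motif and 1.99% with both. Both motifs contain a CpG, and their share among promoters as rich in CpG as these was not counted. The matches describe letters in the windows and say nothing of binding. The start of Tdrd1 that lies farthest inside the gene was unlike the others, with 3 CpG.

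Peaks of H3K4me3, the mark of active or poised promoters, and of H3K27me3, the mark of Polycomb repression, had been called in 2 ChIP-seq replicates each from WT cells. Within 1 kb of the start, defined as the 5′ end of the outermost exon, H3K27me3 peaks of both replicates lay at Ddx4, Sycp1, Mael and Tdrd1, which is 4 of 10 genes against 16.1% of all tested genes. Several of these peaks scored under the median of their list, with Ddx4 at 88 and Mael at 85 against 99 in replicate 1 and Sycp1 at 79 and Mael at 68 against 112 in replicate 2, so that 1 of the 4, Tdrd1, kept both peaks above the median. Counting either replicate, 8 of 10 had such a peak against 24.2% of tested genes, with Dazl and Brdt in replicate 2 only and Tex101 and Stk31 in replicate 1 only. H3K4me3 peaks of both replicates lay only at Ddx4 and Mael, 2 of 10 against 69.3% of all tested genes. Counting either replicate, 7 of 10 had an H3K4me3 peak (also Dazl, Sycp1, Sycp3, Brdt and Tdrd1) against 72.1% of tested genes. The H3K4me3 peaks at these genes scored from 55.8 to 198, all under the median score of their list (350 in replicate 1, 375 in replicate 2). Asz1 had no peak of either mark.

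KAP1 regions, which the authors had from earlier ChIP-seq and used to count 5hmC, overlapped the starts of Dazl (chr17:50431996-50433602) and Brdt (chr5:107759974-107760562), 2 of 10 genes against 4.40% of tested genes. No H3K9me3 region, KAP1-dependent or not, lay within 1 kb of any of the 10 starts, where 1.20% of tested genes had one.

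**Figure D1:**
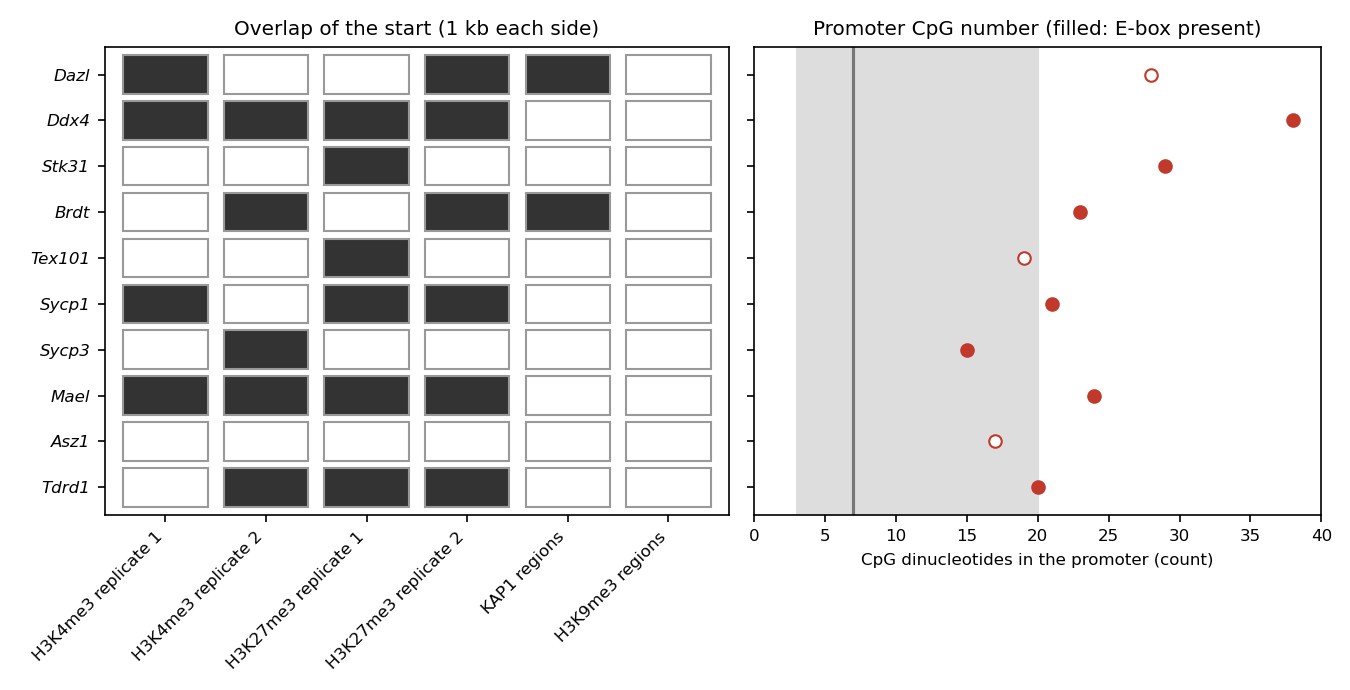
Left, filled cells mark a peak or region within 1 kb of the start of each gene, by ChIP-seq replicate for H3K4me3 and H3K27me3. Right, points give the number of CpG dinucleotides in the first RefSeq promoter (300 bases), filled where an E-box core is present, with the median of all promoters (7, line) and their quartiles (3 to 20, grey band), and all 10 points lie right of the line.

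The libraries held from 18108431 to 29373696 reads on genes. Trim28, the target of the hairpin, fell in WT from between 1627 and 1991 CPM (a gene's reads as a share of its library's depth, scaled by TMM) to between 149 and 190, and in TET TKO from 1772 and 1899 to 163 and 168. In DNMT TKO it fell from between 1701 and 2086 to between 327 and 506 CPM, so more Trim28 RNA was left there. Dnmt1, Dnmt3a and Dnmt3b were lower in DNMT TKO than in WT but not at 0 (Dnmt1 156 to 157 against 478 to 513 CPM with shEmpty), and Tet1 and Tet2 likewise in TET TKO. Tet3 stood at 13.3 and 14.2 CPM in TET TKO with shEmpty against 10.7 to 15.9 in WT, so these reads do not show its knockout. Reads outside a deleted part are no check of it. With shKap1 Tet3 stood at 21.0 and 17.8 CPM in TET TKO against 46.6 to 53.3 in WT. Dnmt3a also rose in the WT knockdown, from between 50.8 and 71.9 to between 125 and 172 CPM. Of Trim28 and the Dnmt and Tet genes, 7 in all, 2 were called higher there and 1 lower. Over all tested genes 10.8% and 6.54% were. The part of these changes in the differences below was not tested. Naive ES markers (10 genes) were abundant in every group but lower with shKap1, summing to 6522 to 6772 CPM with shEmpty and 3978 to 4042 with shKap1 in WT, 5992 to 6284 and 4216 to 4850 in DNMT TKO, and 7548 to 7829 and 5225 to 5341 in TET TKO. On knockdown 3 of the 10 were called lower in WT, 1 in DNMT TKO and 0 in TET TKO. Over all tested genes 6.54%, 2.42% and 4.46% were. The 7 fibroblast markers summed to 3.15 to 8.33 CPM in the other groups and at most 11.6 in DNMT TKO with shKap1, the group where they were highest. Markers of 2-cell-like cells (8 genes) also moved with the knockdown. Their sum was 15.05 to 28.3 CPM with shEmpty and 235 to 267 with shKap1 in WT, 6.65 to 22.7 and 68.7 to 155 in DNMT TKO, and 10.2 to 12.1 and 694 to 714 in TET TKO, with at most 1 of 8 at 0 in any library. The part of either marker list in the differences below was not tested, and in bulk RNA more cells of a type and more RNA per cell cannot be told apart.

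In WT cells with shEmpty the genes were read but low. Per length (RPKM, CPM per kb of exon, mean ± SD, n = 3), Dazl stood at 7.07 ± 1.39 and Sycp3 at 5.34 ± 1.20, a pair whose ranges overlapped. Ddx4 followed at 3.56 ± 0.116, Stk31 at 2.33 ± 0.149 and Mael at 1.07 ± 0.0335. Asz1 (0.300 ± 0.0904), Sycp1 (0.265 ± 0.0911), Tex101 (0.263 ± 0.0577) and Brdt (0.192 ± 0.0505) overlapped each other, and Tdrd1 was at 0.140 ± 0.00623. The order changed with genotype and hairpin. In DNMT TKO with shEmpty, Dazl reached 157 ± 26.9 RPKM and Stk31 13.9 ± 0.0970, while Tdrd1 stood at 0.0416 ± 0.0317.

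**Figure D2:**
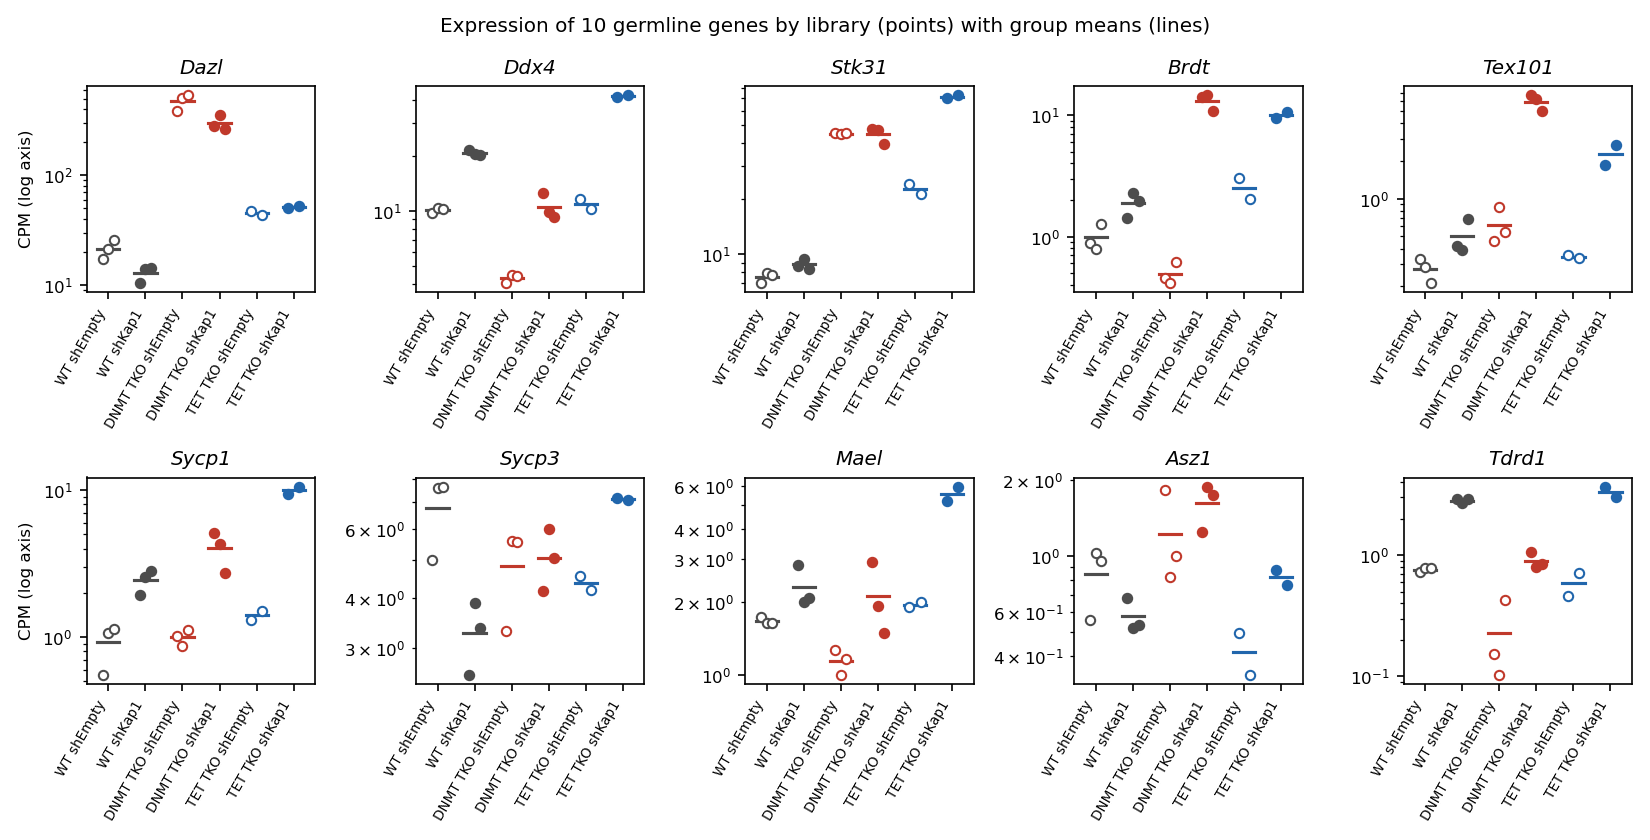
Each panel shows 1 gene, with CPM on a log axis (scales differ between panels) and the 6 groups by genotype and hairpin along the x axis. Points are libraries (open, shEmpty; filled, shKap1), and lines are group means. Dazl and Stk31 are high in DNMT TKO with either hairpin, and in the same cells with shKap1 Brdt reaches 10.9 to 14.5 CPM and Tex101 4.97 to 6.68 CPM.

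Loss of the DNMT enzymes was compared with WT under shEmpty. The genes did not move together: 3 of 10 were called higher (Dazl, Stk31 and Tex101), 2 lower (Ddx4 and Tdrd1) and 5 were not called. A call required an adjusted p below 0.05 and at least a 2-fold difference in edgeR, and over all tested genes 8.23% were called higher and 8.05% lower. The paper describes the genome of naive ES cells as highly hypomethylated, and methylation of these promoters was not measured here, in WT or elsewhere. In RNA, 3 of the 10 genes known for silencing by methylation were higher without the DNMT enzymes. The median log2 difference of the 10 was -0.21 against -0.02 over all tested genes.

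Dazl had 17.2, 21.2 and 25.6 CPM in the WT libraries and 382, 506 and 535 CPM in DNMT TKO. Every DNMT TKO library was far above every WT library, a 22.1-fold difference (log2 4.46, SE 0.18, adjusted p = 5.42e-10). Stk31 had 7.00, 7.90 and 7.75 CPM in WT and 45.2, 44.7 and 45.2 CPM in DNMT TKO. The groups were again apart, and the difference was 5.94-fold (log2 2.57, SE 0.09, adjusted p = 2.43e-13). Stk31 and Asz1 lie on chromosome 6, whose 480 genes with a mean of at least 200 reads had a median log2 difference of -0.30 in this comparison. Tex101 rested on few reads, with 6, 8 and 6 in WT and 9, 25 and 14 in DNMT TKO. In CPM these were 0.333, 0.285 and 0.212 against 0.457, 0.863 and 0.540, a 2.33-fold difference (log2 1.22, SE 0.37, adjusted p = 0.0116). The call for Tex101 was lost without DNMT TKO shEmpty replicate 2 or without WT shEmpty replicate 3, where the lowest log2 difference was 0.88 and the highest adjusted p 0.097.

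Ddx4 and Tdrd1 went the other way. Ddx4 had 9.77, 10.4 and 10.3 CPM in WT and 4.06, 4.49 and 4.43 in DNMT TKO, 2.34-fold lower (log2 -1.23, SE 0.12, adjusted p = 1.34e-07). Tdrd1 was 3.30-fold lower (log2 -1.72, SE 0.38, adjusted p = 0.0012) on very few reads, with 13, 22 and 22 in WT and 3, 3 and 11 in DNMT TKO. When single libraries were left out, its log2 difference ran from -2.58 (without DNMT TKO shEmpty replicate 3) to -1.32. Brdt just missed the 2-fold threshold, at 0.889, 0.783 and 1.27 CPM in WT and 0.457, 0.414 and 0.617 in DNMT TKO (log2 -0.99, SE 0.31, adjusted p = 0.0156). Sycp1 (log2 0.07), Sycp3 (-0.49), Mael (-0.55) and Asz1 (0.44) had adjusted p values between 0.0703 and 0.890.

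Loss of the TET enzymes, compared with the same WT libraries, gave 3 calls higher (Dazl, Stk31 and Brdt) and 0 lower (2 at an unadjusted p under 0.05, Sycp3 and Asz1), while 5.66% of all tested genes were called higher and 4.8% lower. Dazl had 47.6 and 43.0 CPM, 2.11-fold above WT (log2 1.08, SE 0.19, adjusted p = 0.000796), a call lost without WT shEmpty replicate 1 (log2 0.95). Stk31 had 24.0 and 21.2 CPM, 2.98-fold above WT (log2 1.58, SE 0.10, adjusted p = 1.41e-09). Brdt had 3.03 and 2.03 CPM, 2.55-fold above WT (log2 1.35, SE 0.27, adjusted p = 0.000884). The levels of Dazl and Stk31 thus lay between those of WT and DNMT TKO. Brdt was called higher in TET TKO than in WT, while its lower level in DNMT TKO was not called (log2 -0.99). Asz1 was at 0.493 and 0.338 CPM, with log2 -1.05 and adjusted p = 0.0624, and without WT shEmpty replicate 1 it was called lower (log2 -1.24, adjusted p = 0.0292). The median log2 difference of the 10 was 0.29, and 0.00 over all tested genes. The other 6 had adjusted p values from 0.0554 to 0.622. limma-voom and DESeq2 gave 0 lower calls here and in the DNMT TKO and TET TKO knockdowns as well.

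**Figure D3:**
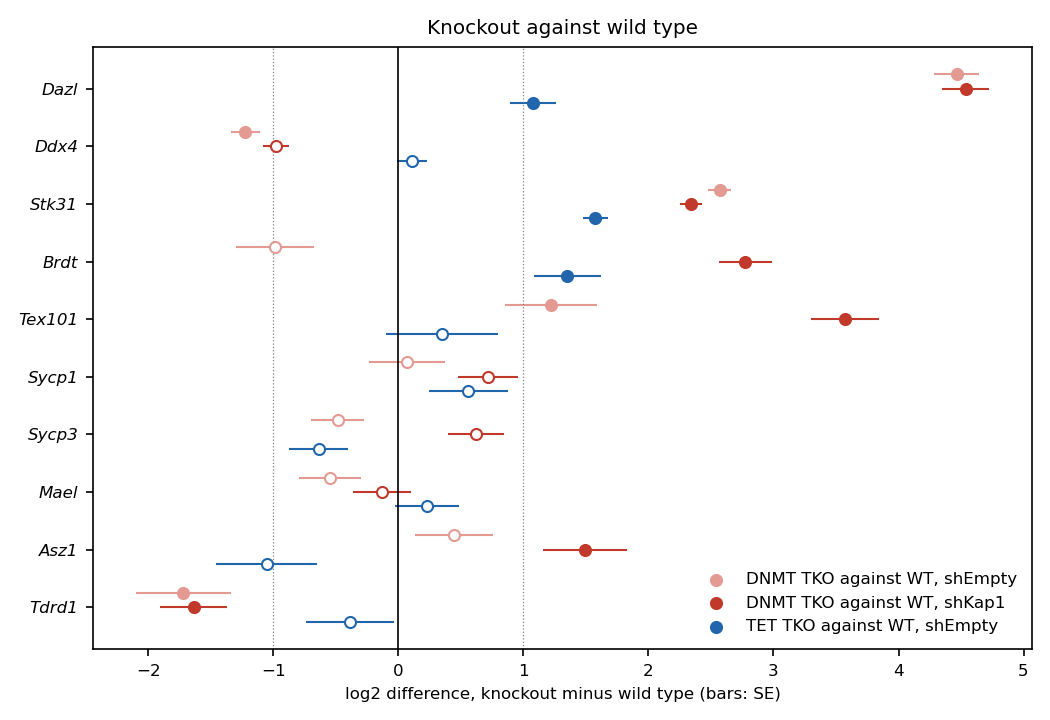
Points give the fitted log2 difference of each gene between a knockout line and WT with the same hairpin, and bars the SE. Filled points are called (edgeR adjusted p below 0.05 and at least 2-fold), and dotted lines mark 2-fold. Dazl and Stk31 lie right of the 2-fold line in all 3 comparisons, and Brdt lies on opposite sides of 0 for DNMT TKO with shEmpty (-0.99) and with shKap1 (2.77).

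Knockdown of Kap1 in WT cells gave 3 calls higher (Ddx4, Sycp1 and Tdrd1) and 1 lower (Sycp3), where 10.8% of all tested genes were called higher and 6.54% lower. Ddx4 went from 9.77, 10.4 and 10.3 to 21.5, 20.4 and 20.2 CPM (log2 1.02, SE 0.11, adjusted p = 3.74e-07), right at 2-fold, and without WT shEmpty replicate 1 it missed that threshold (log2 1.00). Sycp1 went from 0.555, 1.07 and 1.13 to 1.94, 2.55 and 2.83 CPM (log2 1.36, SE 0.28, adjusted p = 0.00059). Tdrd1 went from 0.722, 0.783 and 0.778 to 2.88, 2.68 and 2.88 CPM, a 3.66-fold rise (log2 1.87, SE 0.27, adjusted p = 1.88e-05). In each of these the shKap1 libraries all stood above the shEmpty ones. Sycp3 went from 5.00, 7.61 and 7.64 down to 2.57, 3.90 and 3.36 CPM (log2 -1.05, SE 0.22, adjusted p = 0.000775). Its call was lost with library totals alone (-0.97) and without WT shEmpty replicate 2, WT shEmpty replicate 3 or WT shKap1 replicate 1, where the values nearest to 0 reached -0.88. Dazl fell to 10.4, 14.1 and 14.2 CPM, less than 2-fold (log2 -0.73, SE 0.19, adjusted p = 0.00609). Brdt reached 1.42, 2.30 and 1.97 CPM, also under 2-fold (log2 0.94, SE 0.26, adjusted p = 0.00626). It was called higher with library totals alone (log2 1.02), without WT shEmpty replicate 3 (1.20) or without WT shKap1 replicate 1 (1.13). Stk31, Tex101, Mael and Asz1 had adjusted p values from 0.0723 to 0.192. The median of the 10 was 0.66, against -0.01 over all tested genes.

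Knockdown in DNMT TKO cells gave 5 calls higher (Brdt, Tex101, Ddx4, Sycp1 and Tdrd1) and 0 lower (Dazl alone at an unadjusted p under 0.05), with 10.1% of all tested genes called higher and 2.42% lower. Brdt stood out among the 10. It went from 0.457, 0.414 and 0.617 CPM (9, 12 and 16 reads) to 14.0, 14.5 and 10.9 CPM (291, 308 and 293 reads). That was a 26.1-fold rise (log2 4.71, SE 0.25, adjusted p = 2.40e-10). Tex101 went from 9, 25 and 14 reads to 139, 132 and 134, or from 0.457, 0.863 and 0.540 to 6.68, 6.21 and 4.97 CPM. That was 9.27-fold (log2 3.21, SE 0.25, adjusted p = 3.37e-08). For both genes the lowest shKap1 library lay several times above the highest shEmpty library.

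Sycp1 rose 4.01-fold (log2 2.00, SE 0.26, adjusted p = 1.2e-05) to 5.09, 4.33 and 2.71 CPM. Ddx4 rose 2.42-fold (log2 1.27, SE 0.12, adjusted p = 1.96e-07) to 12.5, 9.83 and 9.27 CPM, which is about where WT stood with shEmpty. Tdrd1 rose 3.88-fold (log2 1.96, SE 0.37, adjusted p = 0.00051) to 1.06, 0.799 and 0.853 CPM. When single libraries were left out, its log2 difference ran from 1.55 to 2.81 (without DNMT TKO shEmpty replicate 3). Dazl fell by 0.66 on the log2 scale (SE 0.15, adjusted p = 0.00473), under 2-fold, to 281, 355 and 266 CPM. Mael reached 2.93, 1.93 and 1.48 CPM, with log2 0.88 (SE 0.25, adjusted p = 0.00931), also under 2-fold. Stk31 had 47.8, 47.4 and 39.5 CPM with shKap1 against 45.2, 44.7 and 45.2 with shEmpty, and these overlapped (log2 -0.01, SE 0.08, adjusted p = 0.969). Sycp3 and Asz1 overlapped between the hairpins as well, with adjusted p values of 0.867 and 0.253. The median of the 10 was 1.08, against 0.02 over all tested genes.

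Knockdown in TET TKO cells gave the most calls among the 10 genes: 7 were called higher (Ddx4, Sycp1, Mael, Tex101, Stk31, Brdt and Tdrd1) and 0 lower, also at an unadjusted p under 0.05, where 8.05% of all tested genes were called higher and 4.46% lower. With n = 2 in each group, all 10 had both shKap1 libraries above both shEmpty libraries, as did 33.6% of all tested genes. Sycp1 went from 1.30 and 1.5 to 9.40 and 10.5 CPM, a 7.08-fold rise (log2 2.82, SE 0.29, adjusted p = 9.28e-07). Tex101 went from 0.352 and 0.338 to 1.85 and 2.67 CPM (6.44-fold, adjusted p = 1.72e-05). Tdrd1 went from 0.458 and 0.714 to 3.66 and 3.03 CPM (5.70-fold, adjusted p = 1.52e-05). Brdt and Ddx4 rose by similar factors, Brdt from 3.03 and 2.03 to 9.49 and 10.5 CPM (3.94-fold, adjusted p = 7.44e-06) and Ddx4 from 11.6 and 10.3 to 41.7 and 42.6 CPM (3.85-fold, adjusted p = 4.30e-09). Stk31, which had hardly moved on knockdown elsewhere, went from 24.0 and 21.2 to 70.1 and 72.5 CPM (3.15-fold, adjusted p = 1.56e-09). Mael went from 1.90 and 1.99 to 5.19 and 5.95 CPM (2.85-fold, adjusted p = 0.000238). Dazl (log2 0.18, adjusted p = 0.556), Asz1 (0.98, 0.116) and Sycp3 (0.70, 0.0483) were not called. Ddx4, Sycp1 and Tdrd1 were therefore called higher on knockdown in each of the 3 genotypes, and Dazl, Sycp3 and Asz1 in none, although a fit of the TET TKO libraries alone called Asz1 higher (log2 1.01, adjusted p = 0.0454). How many of all tested genes were called higher in all 3 genotypes, or in none, was not counted. In TET TKO the median of the 10 was 1.80, against -0.01 over all tested genes.

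**Figure D4:**
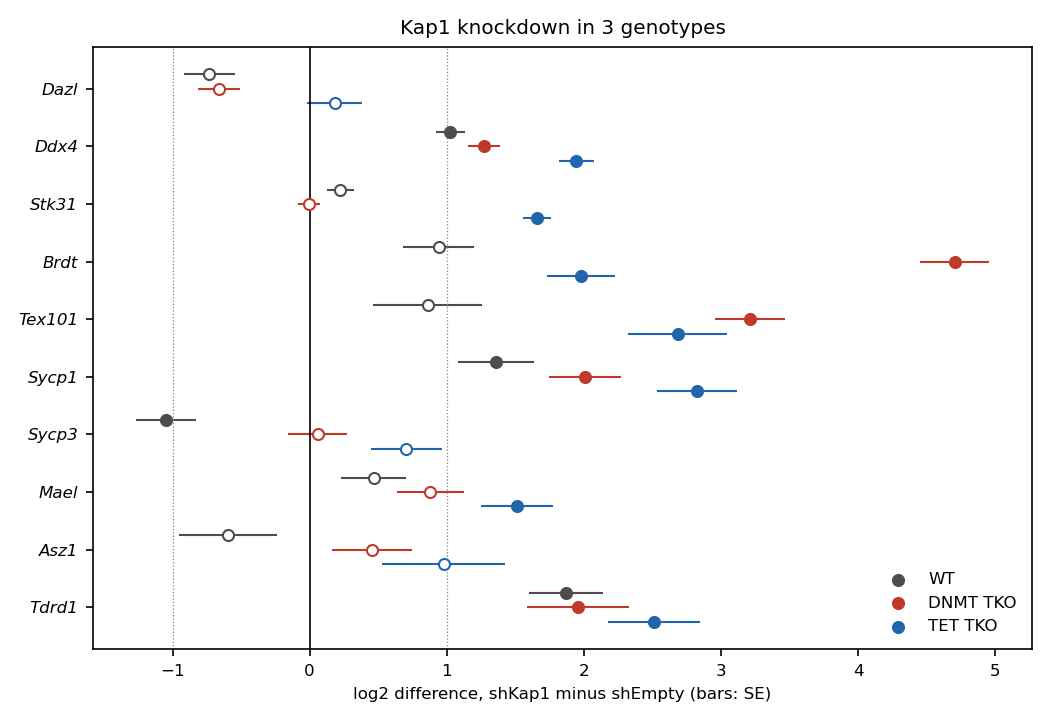
Points give the fitted log2 difference between shKap1 and shEmpty in WT, DNMT TKO and TET TKO cells, and bars the SE. Filled points are called (edgeR adjusted p below 0.05 and at least 2-fold), and dotted lines mark 2-fold. The largest value is Brdt in DNMT TKO (4.71), and Stk31 is past 2-fold in TET TKO only (1.66).

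Whether the knockdown acted differently in the mutants was tested by the interaction of genotype and hairpin. Between DNMT TKO and WT, 3 of the 10 were called, all with a higher signed effect in DNMT TKO, where 4.66% of all tested genes were called higher and 2.48% lower. For Brdt the knockdown effect was 13.6-fold larger (log2 3.76, SE 0.38, adjusted p = 1.98e-06), and for Tex101 5.11-fold larger (log2 2.35, SE 0.50, adjusted p = 0.00268). For Sycp3 the difference was 1.11 (SE 0.31, adjusted p = 0.0173), which came from the fall in WT that DNMT TKO lacked. The Sycp3 call was lost without DNMT TKO shEmpty replicate 1, DNMT TKO shKap1 replicate 2 or WT shKap1 replicate 1 (lowest log2 0.87). For Ddx4, Sycp1 and Tdrd1, called in both genotypes, the differences were 0.25 (SE 0.16), 0.65 (SE 0.39) and 0.08 (SE 0.40), with adjusted p values from 0.286 to 0.929. By the adjusted p alone, whatever the fold, the same 3 were higher, where 10.6% of all tested genes were.

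Between TET TKO and WT, 4 were called, all with a higher signed effect in TET TKO, where 2.08% of all tested genes were called higher and 2.13% lower. Stk31 had a log2 difference of 1.43 (SE 0.14, adjusted p = 3.74e-06) and Sycp3 of 1.75 (SE 0.34, adjusted p = 0.00301), between a called fall in WT (-1.05) and a value in TET TKO that was not called (0.70). Sycp1 (1.47, SE 0.41, adjusted p = 0.0298) and Tex101 (1.83, SE 0.56, adjusted p = 0.0477) were close to the threshold. Sycp1 lost its call without any of 7 libraries taken singly, and Tex101 without any of 9 libraries and in 3 other settings, so that 2 to 4 of the 10 genes were called when a library was left out. Ddx4 had a difference of 0.92 (SE 0.16, adjusted p = 0.00153), under 2-fold, so that by the adjusted p alone 5 of the 10 were higher, where 4.64% of all tested genes were. Mael had a difference of 1.05 (adjusted p = 0.0707), and with the replicate number as a block it was called (1.07, adjusted p = 0.0403). The rise of 2-cell-like markers was also larger in TET TKO, where 5 of the 8 were called higher in the same interaction test. Their part in the difference was not tested.

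With Kap1 knocked down in both, DNMT TKO differed from WT at 6 of the 10 genes: 5 were called higher (Dazl, Tex101, Brdt, Stk31 and Asz1) and Tdrd1 lower, where 11.3% of all tested genes were called higher and 8.37% lower. Dazl was 23.2-fold higher (log2 4.54, SE 0.19, adjusted p = 5.94e-10), at 281, 355 and 266 CPM against 10.4, 14.1 and 14.2. Tex101 was 11.9-fold higher (log2 3.57, SE 0.27, adjusted p = 7.78e-09), at 6.68, 6.21 and 4.97 CPM against 0.419, 0.390 and 0.693. Brdt was 6.84-fold higher (log2 2.77, SE 0.21, adjusted p = 7.84e-09), at 14.0, 14.5 and 10.9 CPM against 1.42, 2.30 and 1.97. Stk31 was 5.06-fold higher (adjusted p = 1.07e-12). Asz1, low throughout, had 1.25, 1.88 and 1.74 CPM against 0.681, 0.520 and 0.533 (log2 1.49, SE 0.33, adjusted p = 0.00118). Tdrd1 was 3.11-fold lower (log2 -1.64, SE 0.27, adjusted p = 5.98e-05). Ddx4 was 1.97-fold lower and so not called (adjusted p = 5.73e-07). The Brdt difference had opposite signs with the hairpins, at -0.99 with shEmpty, not called, and 2.77 with shKap1. The adjusted p of the former was 0.0521 in limma-voom, 0.108 without WT shEmpty replicate 3 and 0.0717 without DNMT TKO shEmpty replicate 2, while it was called lower without DNMT TKO shEmpty replicate 3 (log2 -1.19), WT shEmpty replicate 1 (-1.04) or WT shEmpty replicate 2 (-1.15). In the same comparison 3 of 7 fibroblast markers were called higher and 0 lower, and 6 of 8 markers of 2-cell-like cells lower and 0 higher, and their part in these differences was not tested. These comparisons share their libraries with those of the knockdown and are not independent of them.

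Reads of 5hmC immunoprecipitation and input could be set beside the expression of 6 of the 10 genes, those whose start overlapped a region over which the authors had counted (WT cells, 1 library per condition, no test). A single region held from 20.9% to 35.9% of the reads that each library had in the counted region sets. It was left out of the totals used for scaling. In shEmpty cells the H3K27me3 regions at Mael and Sycp1 had 91 and 94 reads of 5hmC against 21 and 22 of input, log2 ratios of 1.60 and 1.58, above 98.6% and 98.5% of the H3K27me3 regions. Ddx4 (63 against 30) and Tdrd1 (124 against 48) were above 88.0% and 93.9% of them. With shKap1 the same regions had 112 reads against 25 at Mael, 132 against 31 at Sycp1, 102 against 34 at Ddx4 and 159 against 67 at Tdrd1, above 99.2%, 99.1%, 97.1% and 93.4%. At Ddx4 the H3K4me3 region lies inside the H3K27me3 region, and at Mael the regions overlap, so the same reads were partly counted again. The H3K4me3 regions at Ddx4 and Mael had log2 ratios of 0.89 and 1.03 with shEmpty, above 95.0% and 96.3% of the H3K4me3 regions. With shKap1 these ratios were 1.54 and 2.61, the last on 8 input reads, above 98.6% and 99.99%. At the KAP1 region of Dazl there were 106 reads against 32 with shEmpty and 159 against 33 with shKap1, above 82.5% and 87.0% of all KAP1 regions. At that of Brdt there were 42 against 9 and 40 against 18, above 91.9% and 48.2%. Regions were ranked where both inputs together held at least 10 reads, and the counts at Brdt, from 9 to 42, carry a large counting error.

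Other germline genes were taken from 6 lists. In DNMT TKO against WT with shEmpty, where 8.23% of all tested genes were called higher and 8.05% lower, 7 of 17 tested genes of genome defence and piRNA were called higher and 1 lower (median log2 0.94), and 3 of 10 other genes known for methylated promoters were higher and none lower (0.86). Of 26 tested meiosis genes 7 were higher and 2 lower (0.38), and of 7 primordial germ cell genes 3 were higher (0.46). Spermatid genes gave 1 higher and 1 lower of 5 tested, and oocyte genes 2 higher and 1 lower of 6 tested. Fkbp6, a co-chaperone of the piRNA pathway, stood at 63.2 ± 2.03 CPM (mean ± SD, n = 3) against 16.7 ± 1.20 in WT (log2 1.92). Piwil4, a nuclear PIWI protein, had 77 reads against 22 over 3 libraries (1.76). Hormad1, of the meiotic chromosome axis, stood at 29.8 ± 3.88 CPM against 5.51 ± 0.426 (2.44), and it is in the meiosis list as well. Tuba3a, a testis tubulin, stood at 88.5 ± 6.39 against 20.1 ± 3.35 (2.13), and Smc1b, a meiotic cohesin, at 10.6 ± 1.27 against 1.26 ± 0.369 (3.03). Hfm1, a meiotic helicase, had 72 reads in DNMT TKO against 3 in WT, too few in WT for a fold. Dppa3, a maternal factor marking early germ cells, stood at 68.3 ± 30.1 against 11.2 ± 0.354 CPM (2.61), and Nanos3, needed by primordial germ cells, at 4.46 ± 0.472 against 1.41 ± 0.545 (1.62). Ldhc, a testis lactate dehydrogenase, had 231 reads against 61 and Tssk6, a spermatid kinase, 10 against 38. Bmp15, an oocyte growth factor, had 34 reads against 7, and Padi6, of oocytes, 5 against 25.

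In the WT knockdown, where 10.8% of all tested genes were called higher and 6.54% lower, the same lists gave calls in each direction, on few genes in most of them. Genome defence genes gave 3 higher and 3 lower of 17, genes known for methylated promoters 3 and 3 of 10, and meiosis genes 5 and 2 of 26. Primordial germ cell genes gave 1 higher and 2 lower of 7, spermatid genes 1 and 2 of 5, and oocyte genes 1 and 2 of 6. Tdrkh, a Tudor protein of the piRNA pathway, rose from 0.451 ± 0.0838 to 5.20 ± 0.452 CPM (log2 3.53), and Dpep3, a testis dipeptidase, from 0.530 ± 0.225 to 2.25 ± 0.785 (2.01). Spo11, which cuts DNA in meiosis, had 84 reads with shKap1 against 7, and Rad21l, a meiotic cohesin, 9 against 1. Tex19.1, active in germ cells and placenta, fell to 22.3 ± 0.629 CPM from 68.0 ± 2.55 (-1.61), Prdm14, a regulator of naive and germ cell identity, to 9.31 ± 1.36 from 66.3 ± 5.22 (-2.83), and Kit, a germ cell receptor, to 78.9 ± 4.11 from 189 ± 2.94 (-1.26). Piwil4 had 4 reads against 22, Ldhc 7 against 61, Zpbp 8 against 29, Padi6 1 against 25 and Bmp15 0 against 7. The 13 genes of the machinery known to repress germline genes, E2f6, Mga and Setdb1 among them, gave no call in any of the 8 comparisons. Still, 56 of their 104 tests had an unadjusted p under 0.05 in edgeR. Their largest log2 difference there was 1.498 in size, past 2-fold, so the lack of calls does not show that they were unchanged. In limma-voom 1 of these tests was called and in DESeq2 0. The 8 genes of the p53 response gave 0 calls in 64 tests by any of the 3 tools, with 43 at an unadjusted p under 0.05 in edgeR and the largest log2 difference at 0.98 in size. Over all tested genes, 2.08% to 11.3% were called higher and 2.13% to 8.37% lower in the 8 comparisons. Their share at an unadjusted p under 0.05 is not given here, so 56 of 104 and 43 of 64 have no base rate.

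Over the 16 libraries, the log2 levels of the 10 genes were alike to different degrees. Pearson r was 0.93 between Ddx4 and Tdrd1, 0.92 between Ddx4 and Mael, 0.85 between Sycp1 and Brdt, 0.84 between Sycp1 and Mael, 0.82 between Tex101 and Brdt, 0.80 between Mael and Tdrd1, 0.78 between Dazl and Stk31 and 0.75 between Sycp1 and Ddx4. Sycp3 had r from -0.06 (Tdrd1) to 0.24 (Stk31) with the others. Dazl ran against Tdrd1 (-0.64) and Ddx4 (-0.61). These are descriptions over libraries that share groups and controls. Among 13497 other genes with at least 500 reads, those most like the mean of the 10 included Whsc2 (r = 0.969), Clp1 (0.954), Dock9 (0.950) and Abcg3 (0.943).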

How the data were processed

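RNA-seq of 16 libraries (3 genotypes by 2 hairpins), ChIP-seq of H3K4me3 and H3K27me3, and hMeDIP-seq were used. RNA values are read counts per gene deposited by the authors, made with featureCounts on mm9 exons, by strand. The file headers name a release of the program other than the 1.5.1 in the submitters' notes. The methods name HISAT2 (2.0.1 in those notes), while alignment names in the headers are of a kind TopHat uses, so the aligner is uncertain. Peak values are scores deposited by the authors, from MACS (1.4) for H3K4me3. The methods restrict SICER to H3K9me3, which would leave MACS for H3K27me3, but all H3K27me3 peaks start on a grid of 200 bases, as the H3K9me3 regions do and the H3K4me3 peaks do not, so the program behind these scores is uncertain. For 5hmC the deposited tables give read counts over sets of regions. The KAP1 and H3K9me3 regions come from earlier data of the authors. Replicate 2 of hMeDIP was left out because the role of each of its libraries is unclear from the labels, and tables of repeat elements were not used here.

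Genes with at least 16 reads over the 16 libraries were tested in edgeR 4.0.16 (R 4.3.3) with TMM scaling and robust quasi-likelihood F tests over 6 group means, with Benjamini-Hochberg adjustment over all genes tested in each comparison. Depth ran from 18108431 to 29373696 reads, so a gene under 1 CPM had fewer than about 30 reads in a library and a large counting error. CPM and RPKM were scaled by TMM. The SE of a log2 difference is its size divided by the square root of its F statistic. For likeness between genes, 2 was the prior count of the log2 CPM. The code was tested on simulated data. Alternatives were limma-voom (limma 3.58.1), DESeq2 1.42.0, other scalings and filters, no fold threshold, a replicate block, the compared groups alone and leaving out each library, and for promoters other windows, peak scores, overlaps and starts. Over all tested genes, libraries with the same replicate number deviated together, every correlation above 0.1, only for shEmpty and shKap1 of WT (0.118 to 0.274) and between WT and DNMT TKO with shEmpty (0.135 to 0.317). That pairing comes from the values.

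The 10 genes and the other lists were chosen with earlier results of these data known. Genes outside the 10 are named by rule: the targeted genes, the 2 largest changes among the called genes of each germline list in DNMT TKO against WT with shEmpty and in the WT knockdown, and the 5 genes of at least 500 reads most like the 10. One gene that this rule names is not reported here. E2f6, Mga and Setdb1 were named after their values were seen. Promoter sequences are from RefSeq (GRCm38.p6), matched by sequence to mm9, whose coordinates are given.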

Additional observations from a re-analysis of the deposited data

Results flagged for a closer look

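The signed log2 effect of the knockdown was higher than in WT at 3 of the 10 genes in DNMT TKO and at 5 in TET TKO, in tests of the difference itself (edgeR, adjusted p below 0.05 with no fold threshold, by which 10.6% and 4.64% of all tested genes were higher). In DNMT TKO it was higher by 3.76 for Brdt, 2.35 for Tex101 and 1.11 for Sycp3. In TET TKO it was higher by 1.83 for Tex101, 1.75 for Sycp3, 1.47 for Sycp1, 1.43 for Stk31 and 0.92 for Ddx4. For Sycp3 the effect was a called fall in WT (-1.05) and was not called in DNMT TKO (0.06) or TET TKO (0.70). The differences of Sycp1 and Tex101 in TET TKO were no longer past the threshold without any of 7 and 9 single libraries. That of Sycp3 in DNMT TKO was not past it without DNMT TKO shKap1 replicate 2 (adjusted p = 0.060) or WT shKap1 replicate 1 (adjusted p = 0.0527). No cause was tested. Groups of 2 or 3 libraries were too small to look for single outlying libraries.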

How the results depend on the processing

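The counts of called genes in the 8 comparisons stayed within 1.5 times their value under every tool, scaling, filter and threshold tried. A replicate block was fitted over all 16 libraries, although not all groups were paired. With it the counts were the same in 7 comparisons. In the interaction of TET TKO and WT 5 in place of 4 genes were called, with Mael added. The shEmpty and shKap1 libraries of TET TKO did not deviate together (r = -0.004). No other call changed under the block.

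When each library was left out in turn, the number of called genes ranged from 4 to 6 for DNMT TKO against WT with shEmpty, 3 to 3 for TET TKO against WT (without WT shEmpty replicate 1, Dazl was lost and Asz1 was called lower), 3 to 4 for the knockdown in WT, 5 to 6 in DNMT TKO, 7 to 7 in TET TKO, 6 to 7 for DNMT TKO against WT with shKap1, 2 to 3 for the interaction with DNMT TKO and 2 to 4 for that with TET TKO. Signs turned only at genes that were not called. Leaving out a library gave ranges of -0.14 to 0.23 for Sycp1 and DNMT TKO with shEmpty, -0.44 to 0.051 for Mael and DNMT TKO with shKap1, -0.17 to 0.18 for Sycp3 and -0.078 to 0.048 for Stk31 on knockdown in DNMT TKO, and -0.11 to 0.195 for Dazl and -0.32 to 0.94 for Tdrd1 in the interaction with DNMT TKO. With library totals alone Stk31 stood at 0.056 on knockdown in DNMT TKO.

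Keeping only peaks above the median score left H3K4me3 in both replicates at 0 genes and H3K27me3 at 1. Other windows and overlaps, and the RefSeq start, which was chosen after seeing the data, were also tried for the promoter counts. Among all counts and shares, those of expression included, 98 alternatives were classed as the same and 3 as moved. Fits without a library are not among these. The score threshold was applied only to the counts of H3K4me3 and H3K27me3 in both replicates, so it cannot account for all 3 moves. The counts of called genes did not move, so a promoter count also moved with another window, overlap or start. Which of these it was, was not resolved. The regions with 5hmC counts at these genes were the same within 1000 and 2000 bases of the start. The median RPKM of the 10 genes in WT with shEmpty, averaged over libraries, was 0.707, and 0.692 with library totals. The cause of these changes was not tested. Calls at Tdrd1, Tex101, Asz1 and Sycp1 rest on few reads in some groups.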
